A study of Mus musculus with 9 samples.

Results

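The gated cells described here were LSK cells (lineage-negative, Sca-1-positive, c-Kit-positive bone marrow cells, the fraction that holds blood stem cells and multipotent progenitors) with at least 1 UMI of Cd48 and 0 UMIs of each of 7 other genes, namely Flt3, Procr, Slamf1, Il7r, Dntt, Pf4 and Mki67. UMIs are unique molecular identifiers, so that 1 UMI stands for 1 counted mRNA molecule. Members were thus chosen by their measured UMIs of these 8 genes. The gate held 300 of the 15975 cells (1.88%) that had 1000 to 40000 UMIs, at most 6000 genes and at most 10% mitochondrial UMIs in 9 droplet libraries. The libraries came from C57BL/6 mice and were 3 from young animals (10 to 12 weeks), 3 from aged animals (over 80 weeks) and 3 from aged animals given CASIN, an inhibitor of the small GTPase Cdc42. CASIN mice received 25 mg/kg intraperitoneally in cyclodextrin, in 4 injections 24 h apart, and both control groups received cyclodextrin alone, with bone marrow taken on day 5. LSK cells had been frozen viably and thawed, and were processed in 2 sequencing batches. Batch 1 held young 1 and 2, aged 1 and CASIN 1 and 2, whereas batch 2 held young 3, aged 2 and 3 and CASIN 3. The labels do not say whether a library was 1 animal or a pool, so that p-values measure the spread between libraries, which may be technical in part.

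The family of SLAM receptors, to which Cd48 and Slamf1 belong, is widely used to split LSK cells. Slamf1 (CD150) marks long-term stem cells, Cd48 appears as cells leave the stem cell state, and Flt3, the receptor of a cytokine that sustains lymphoid development, marks the multipotent progenitors primed toward lymphoid fates. Multipotent progenitors with CD48 and without FLT3 or CD150 protein are known mainly for giving rise to granulocytes and monocytes, and Procr (EPCR), Il7r and Dntt, Pf4 and Mki67 mark stem cells, lymphoid priming, the megakaryocyte lineage and dividing cells. Here the sorting was done on transcripts after the fact, and a gene at 0 UMIs is a gene that was not captured, not one that is known to be off.

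The 9 libraries held 19237354 to 42780953 UMIs over all deposited barcodes. The gated cells gave 48, 68 and 23 cells in the young libraries, 33, 23 and 26 in the aged libraries and 16, 47 and 16 in the CASIN libraries, with 203644 to 885881 UMIs summed per library. Their median was 12560.5 UMIs, 3212 genes and 2.90% mitochondrial UMIs, against 11706 UMIs and 3.71% over all cells that passed. Of the 300 cells, 132 had exactly 1 UMI of Cd48, 67 had 2 and 101 had 3 or more, up to 16 in 1 cell. Scrublet called 0 of them doublets. Of 31889 different barcode sequences, 318 occurred in more than 1 library, and 4 sequences occurred among the gated cells of more than 1 library.

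The conditions were applied in turn, so that the cells removed at each step depend on the order. Over all cells that passed, a Flt3 UMI was seen in 45.3% and a Procr UMI in 47.9%. Cd48 was seen in 4984 cells (31.2% of the cells that passed), and the requirement of 0 Flt3 UMIs left 1190, that of 0 Procr UMIs 796, Slamf1 765, Il7r 739, Dntt 553, Pf4 449 and Mki67 300. Depth set part of this membership: when every cell with 4000 UMIs or more was thinned to 4000 and the same rule applied, 635 cells passed, of which 156 were among the 281 gated cells deep enough to be thinned, which is 55.5% of those gated cells and 24.6% of the cells that passed after thinning. Of the 635 cells, 48.5% had a Flt3 UMI before thinning. A cell near an edge of the gate thus moved in or out with the number of UMIs drawn.

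The values on both sides of each edge describe what the gate cut, with no test, because the same cells and genes chose the members. Levels are UMIs of a gene per 1000000 UMIs (CPM) summed over the cells named. On the Cd48 side, 1602 cells with 0 Cd48 UMIs that met the other 7 conditions had Mecom, a transcription factor of stem cells, at 138 CPM, the 132 gated cells with 1 Cd48 UMI had it at 53.8 CPM, and the 101 cells with 3 or more had it at 36.8 CPM. Plac8, a small cysteine-rich protein of committed progenitors, ran the other way, with 223, 717 and 1327 CPM in the same order, and Ctla2a, a cysteine protease inhibitor homologue, stood at 3455, 2572 and 1249 CPM. Batch 2 supplied 58.4%, 45.5% and 14.9% of these cells. Within batch 1 Ctla2a was at 1167, 1371 and 1292 CPM and within batch 2 at 4962, 3560 and 1091 CPM, so that batch 1 showed no such decline. Mecom was lower in the same order within both batches, and Plac8 higher. The 13 batch 2 cells with 2 Cd48 UMIs broke the order of Plac8, at 485 CPM against 676 CPM with 1 UMI. On the Flt3 side, 204 cells that met all other conditions but had 1 Flt3 UMI had Cd34 at 383 CPM and Elane, the elastase of neutrophil granules, at 5.31 CPM. Beside these edges, 2 classes serve below as neighbours of the gate in each library: 436 cells with the same gate but at least 1 Flt3 UMI (the Flt3-positive class), and 3254 cells with Procr and with 0 UMIs of Cd48, Flt3, Il7r, Dntt, Pf4 and Mki67 (the Procr-positive class).

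The gate held several kinds of cells. Of the 300 cells, 25 (8.33%) had over 1% of their UMIs in immunoglobulin genes, and 22 of these had 34.8 to 85.3%. These 22 are also the gated cells that lie past the study's limit on the residual of genes against UMIs, a filter that the gate does not include. In the immunoglobulin-rich cells Igkc, the kappa light chain constant region, stood at 431170 CPM and Jchain, which joins secreted immunoglobulin chains, at 22054 CPM, while Cd34 was at 3.12 CPM, Kit, the receptor used in the sort, at 17.2 CPM and Hlf, a stem cell transcription factor, at 0. Their median depth was 31972 UMIs, and they supplied 15.3% of all UMIs in the gate. The limits that define these kinds were set after the values had been seen, and their names refer to the gene lists on which they were cut.

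A further 24 cells (8.0%) had 6.42 to 79.5 UMIs per 1000 in a list of 14 granulocyte and monocyte genes, while the highest of the remaining cells had 4.63 per 1000. In the granulocyte-monocyte-rich cells Elane was at 11811 CPM, Mpo, the myeloperoxidase of the same granules, at 7163 CPM and Ctsg, cathepsin G, at 6665 CPM. Cd34 was at 48.3 CPM and was seen in 29.2% of them. Their median depth was 2449.5 UMIs, and 13 of the 24 had fewer than 4000 UMIs. They were uneven: 6 cells with 10 or more UMIs of S100a8 and S100a9, calcium-binding proteins of neutrophils, had a median of 27891 UMIs and the other 18 one of 1819.5, so that the deep cells weigh most in the summed levels. A single further cell, in young 3, held 116 UMIs per 1000 in a list of mast cell and basophil genes.

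These kinds were not spread evenly. Immunoglobulin-rich cells numbered 0, 0 and 6 in the young libraries, 1, 4 and 6 in the aged and 1, 3 and 4 in the CASIN libraries, so that they made up 5 of 212 gated cells (2.36%) in batch 1 and 20 of 88 (22.7%) in batch 2. Over all cells that passed the filters, 139 (0.870%) were immunoglobulin-rich. Immunoglobulin genes took 0.0034%, 0.0023% and 20.8% of the gated cells' UMIs in young 1, 2 and 3, then 0.766%, 18.0% and 23.2% in the aged libraries and 0.0422%, 8.98% and 26.3% in the CASIN libraries. Granulocyte-monocyte-rich cells numbered 3, 5 and 0, then 3, 3 and 2, then 0, 7 and 1. The comparisons between groups were therefore also made without these 3 kinds, and for the genes named below the level outside them is given where it alters the picture.

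**Figure D1:**
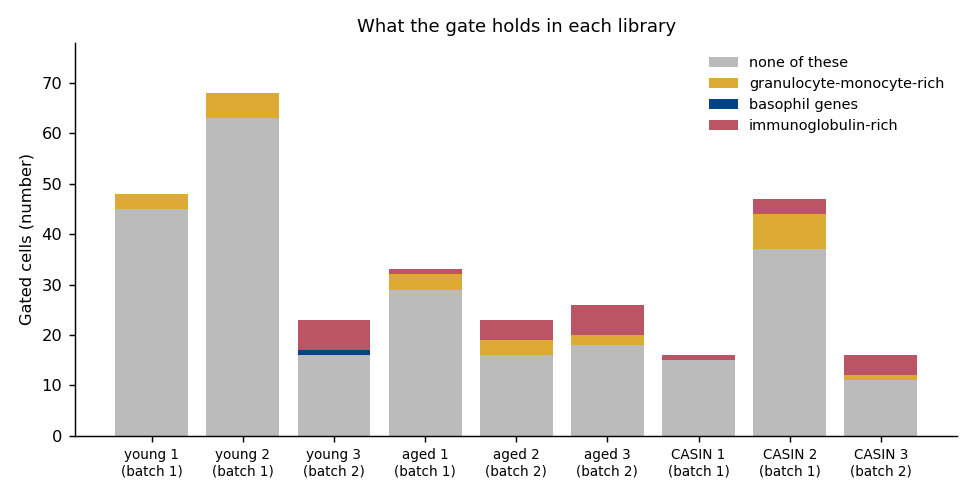
Number of gated cells per library (bars), split by immunoglobulin-rich cells (25), the cell with basophil genes (1), granulocyte-monocyte-rich cells (24) and the cells that were none of these (250). The x axis gives the library and its sequencing batch; the 4 libraries of batch 2 hold 20 of the 25 immunoglobulin-rich cells.

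A few cells decided several genes of the whole gate. The granulocyte-monocyte-rich cells held 99.8% of the gate's Elane UMIs, 85.6% of its Mpo UMIs, 88.4% of its Ctsg UMIs and 99.5% of its S100a8 UMIs. The immunoglobulin-rich cells held 99.9% of the Igkc UMIs, 92.8% of those of Cd74, the invariant chain of MHC class II, and 92.8% of those of Ly6d, an antigen of B-lineage progenitors. Outside the 3 kinds Elane was at 1.88 CPM, Mpo at 115 CPM and Ctsg at 66.7 CPM. Elane and Mpo were at 5.84 and 12.3 CPM in the Procr-positive class, from which no such cells had been cut. A list total shows the same: the 14 granulocyte and monocyte genes summed to 934 to 9687 CPM per library over all gated cells and to 787 to 1523 CPM without the 3 kinds.

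The kind was cut on this same list, so that its share of the list's UMIs follows from the cut. To show the sequences of the program, the promoters of 5 of its genes were read from RefSeq (GRCm38.p6, 250 bases before to 50 after the gene start). The letters GAGGAAG, bound by PU.1, a transcription factor of granulocytes and monocytes, were found on either strand in 4 of the 5 promoters (Elane, Mpo, Ctsg and Prtn3) and in 13.6% of 32851 promoters, TTGCNNAA, a C/EBP motif, in 1 of 5 (Ms4a3) and in 10.8% of all, and TGTGGT, a RUNX motif, in 1 of 5 (Ctsg) and in 16.8% of all. Motifs were chosen after the sequences had been seen, the 3 do not overlap in these stretches, and a match is a description of letters, not of binding. The stretches of 30 bases around the GAGGAAG nearest the gene start are shown to place it, 5′ to 3′ on the strand of the gene, with the motif in capitals. It begins 85 bases before the start in Elane, at chr10:79886215-79886244 (plus strand), 224 before in Mpo, at chr11:87793548-87793577 (plus strand), 216 before in Ctsg, at chr14:56102773-56102802 (minus strand), and 95 before in Prtn3, at chr10:79879560-79879589 (plus strand).
Elane: tcgtgtcccaggGAGGAAGtagggctgtgg
Mpo: tgtggagagagaGAGGAAGttgcctttgtc
Ctsg: ctcccagaaggaGAGGAAGaaaaggaagta
Prtn3: ccaaactggaagGAGGAAGtgggacccaca
These distances count from the RefSeq starts. From the GENCODE starts the motif begins 20 bases before in Elane, 21 in Mpo and 216 in Ctsg, and in Prtn3 it lies inside the gene as annotated there.

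The remaining 250 cells (83.3%) were the body of the gate, and the label that names these cells Cd48-positive, Flt3-negative multipotent progenitors held for them in part. Cd34, a surface sialomucin of progenitors (chromosome 1, 194938819 to 194961279, plus strand, GRCm38), was seen in 91.2% of them at 373 CPM, Kit was at 166 CPM and Hlf at 162 CPM. In the Procr-positive class, where Cd34 should be low, it was seen in 44.3% at 107 CPM. Ctla2a, the third marker (chromosome 13, 60934155 to 60936625, minus strand), was abundant in both classes. Summed over cells it stood at 2449 CPM in the 250 cells and at 2735 CPM in the Procr-positive class. Averaged over the 9 libraries the order turned, at 3286 and 2774 CPM. The 250 cells were higher in each library but young 3. In aged 1 and CASIN 1 and 2 they were at 1515, 1427 and 1591 CPM. There Ctla2a and Cd34 together made 682, 705 and 799 CPM in the Procr-positive class. Ctla2a has a near copy, Ctla2b, on the same chromosome, and reads of both could be exchanged in counting. Because the gate also held the 3 kinds and Ctla2a was abundant in both classes, the cells are named by the gate and not by the label.

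Lists of other lineages differed in level in these 250 cells. Of the mature B cell genes, Ms4a1 and Fcmr were at 0 and Cd79a averaged 0.688 CPM, and the 5 neutrophil genes summed to at most 10.4 CPM in any library. Cells rich in immunoglobulin or in granulocyte and monocyte genes had been cut from these cells, so that such low levels can follow from the cut. The erythroid list summed to 490 ± 147 CPM (SD, n = 9 libraries), of which Car2, a carbonic anhydrase that progenitors also express, made 440 CPM, while Car1 and Alas2 were at 0. At 4000 UMIs per cell 56.3% of the cells had 2 or more UMIs of it, against 54.0% of the Procr-positive class. Averaged over the libraries of a group the order turned. The means were 59.0% against 60.8% in young, 44.0% against 53.2% in aged and 56.1% against 57.9% in CASIN libraries. The megakaryocyte list summed to 366 ± 175 CPM, with Cd9, a tetraspanin, at 146 CPM and Ppbp at 0, and was present in 33.9% against 67.9%. The list of T and NK cell genes summed to 262 ± 103 CPM and was present in 31.4% against 1.82% of the Procr-positive and 24.4% of the Flt3-positive class, with Nkg7 at 254 CPM as its most abundant gene and all 5 genes with at least 1 UMI. Among endothelial and stromal genes the most abundant was Emcn at 14.8 CPM, and among macrophage genes C1qb at 0.696 CPM.

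Transcripts of different fates were also counted within single cells of this body. At 4000 UMIs per cell (245 of the 250 cells were deep enough) and with 2 or more UMIs of a list counted as present, 72 cells held the granulocyte and monocyte list alone, 7 the early lymphoid list alone and 7 the stem cell list alone. Another 65 held granulocyte with stem cell genes, 49 granulocyte with early lymphoid genes, 35 all 3 lists and 4 lymphoid with stem cell genes, while 6 held none. The share of background RNA in the droplets was not estimated. Igkc was seen in 27.2% of the 250 cells, so that a list counted as present, alone or with another, need not be expressed by the cell. The granulocyte and monocyte list was present in 90.2% of these cells and in 91.7% of the Procr-positive class. At full depth Prtn3 alone was seen in 93.6% of the 250 cells and 90.0% of that class, so that presence of the list cannot show a difference. Mpo was at 115 against 12.3 CPM and Ctsg at 66.7 against 1.86 CPM, whereas Elane (1.88 against 5.84 CPM) and Prtn3 (558 against 653 CPM) were lower. Cells rich in these genes had been cut from the 250 but not from the Procr-positive class, so that the lower values can follow from the cut. Of the other lists alone, 39 of the 245 cells held early lymphoid together with stem cell genes. The early lymphoid list was present in 38.8% against 7.40% of the Procr-positive class and 51.0% of the Flt3-positive class, and the stem cell list in 45.3%, 90.1% and 45.3%. The S phase list was present in 76.7%, 44.6% and 78.4%.

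To place the gate among its neighbours, the summed UMIs of each library were compared with those of the Flt3-positive and Procr-positive classes of the same library. The classes were cut from the UMIs of the same cells, so that counts of genes past an adjusted p of 0.05 (edgeR, library as block, gate genes left out) describe how far apart the gates lie and are no test of a hypothesis. Against the Procr-positive class 2660 of 7831 genes passed (34%), 1351 higher (17.3%) and 1309 lower (16.7%) in the gate. Against the Flt3-positive class 49 of 4630 passed (1.06%), 16 higher (0.346%) and 33 lower (0.713%). Of these 49, 30 were also among the 2660, which is 61.2% of the shorter list and 1.13% of the longer.

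Against the Procr-positive class the gated cells carried more DNA replication transcripts and fewer stem cell transcripts. All 17 S phase genes measured were higher past the threshold, with a median log2 difference of 1.62, against -0.04 over all genes, although dividing cells with a Mki67 UMI had been left out of both classes. Mcm5, a subunit of the replicative helicase, averaged 66.4 ± 29.2 CPM in the gate and 14.9 ± 10.3 CPM in the Procr-positive class (SD, n = 9 libraries), Hells, a chromatin remodeller of replicating cells, 63.9 ± 32.5 and 12.3 ± 10.5 CPM, and Dut, the dUTPase, 246 ± 122 and 80.3 ± 43.9 CPM. Without the 3 kinds the list still had 17 of 17 genes higher, at a median of 1.65, beside 14.3% of all genes tested.

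Genes of G1 progression moved in both directions. Cdk6, the kinase that carries stem cells out of quiescence, averaged 245 ± 91.1 CPM against 107 ± 26.2 CPM in the Procr-positive class, and Cdk4 261 ± 121 against 156 ± 56.1 CPM. Cdkn1c, the inhibitor p57 of quiescent stem cells, averaged 5.18 ± 4.11 CPM against 68.1 ± 35.9 CPM, and it was lower in the gate in 9 of 9 libraries. Of the 10 genes of this list, 3 were higher past the threshold and 4 lower, beside 17.3% and 16.7% of all genes tested.

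The stem cell list ran low in the gate, with 10 of 11 measured genes lower and a median log2 difference of -2.35, beside 16.7% of all genes tested and a median of -0.04. The largest differences were those of Meg3, a maternally expressed long noncoding RNA (0.656 ± 1.14 against 88.1 ± 34.8 CPM), Sult1a1, a sulfotransferase (1.78 ± 3.31 against 105 ± 103 CPM), and Vwf, von Willebrand factor (1.38 ± 1.37 against 54.1 ± 29.6 CPM). The remaining genes named by the rule were also lower in 9 of 9 libraries: Nupr1, a stress-response nuclear protein, Jam2, a junction protein, Art4, Tgm2, Trim47, Clec1a, Aldh1a1, a retinaldehyde dehydrogenase, and Mmrn1, multimerin, with gate means of 2.83 to 13.4 CPM against 59.8 to 287 CPM. Mecom averaged 45.1 ± 15.6 against 174 ± 29.8 CPM, and Hlf 125 ± 44.7 against 284 ± 97.9 CPM.

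Among 20 transcription factors of the blood system, 3 were higher and 7 lower past the threshold, beside 17.3% and 16.7% of all genes tested. Among 14 cytokine receptors measured, 2 were higher and 3 lower, shares near those of all genes. Ikzf1 (Ikaros, a factor of lymphoid priming) averaged 56.9 ± 12.2 against 45.7 ± 13.5 CPM, while Gata2, Meis1, Tal1, Lmo2 and Zfpm1, factors of stem cells and of the megakaryocyte and erythroid branch, were lower, Gata2 with 43.7 ± 17.5 against 133 ± 40.1 CPM. Spi1, which encodes PU.1, averaged 185 ± 45.8 and 171 ± 111 CPM and was not past the threshold. Kit averaged 129 ± 41.4 against 211 ± 64.8 CPM and Il3ra, the interleukin 3 receptor alpha chain, 25.8 ± 7.29 against 15.4 ± 3.52 CPM.

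Of the 12 genes highest in the gate relative to the Procr-positive class by the rule, 10 had most of their UMIs in the few cells set apart above. These were Ctsg, Ms4a3 and Mpo, genes of granulocyte progenitors, Ighm, the immunoglobulin heavy chain, Ly6d, Slpi, Ly6c2, Clec12a, Ctss and Cd52, with 66.5% (Cd52) to 99.8% (Ighm) of their UMIs there. Tyrobp, an adaptor of immune receptors, had 30.1% and Plac8 35.7% there. Plac8 averaged 959 ± 287 CPM against 110 ± 77.7 CPM, a log2 difference of 3.65, and 3.25 without the 3 kinds. Cd34 was higher in 9 of 9 libraries (282 ± 103 against 129 ± 69.4 CPM), and Ctla2a in 4 of 9.

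**Figure D2:**
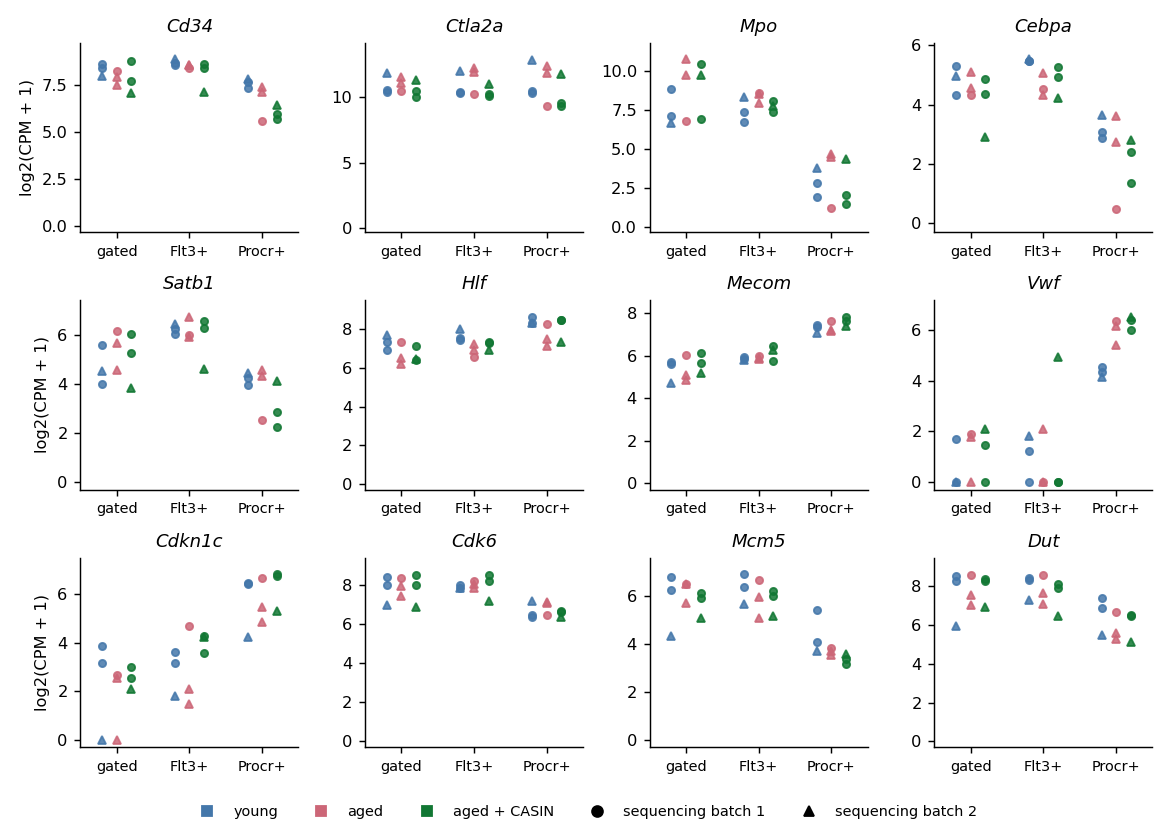
Level of 12 genes as log2(CPM + 1), on the y axis, in the gated cells, the Flt3-positive class and the Procr-positive class of each of the 9 libraries (1 point a library; colour for the group, shape for the batch). Mecom, Vwf and Cdkn1c lie lower in the gate than in the Procr-positive class in all 9 libraries, Mcm5, Dut, Cdk6 and Satb1 lie higher on average, and the gate overlaps the Flt3-positive class in most of the 12 genes.

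The Flt3-positive class was close to the gate. The 5 genes named as higher in the gate in 9 of 9 libraries were Apoe, apolipoprotein E (161 ± 78.4 against 57.8 ± 25.5 CPM), Grn, progranulin (57.8 ± 13.5 against 31.9 ± 6.86 CPM), Ctsb, cathepsin B, S100a1, and Nkg7, a granule membrane protein. Lower in 9 of 9 libraries were Wfdc17 (51.7 ± 55.4 against 186 ± 70.2 CPM), Tnip3, an inhibitor of NF-κB signalling, Pou2f2 (Oct2, a factor of B cells), Lsp1, Slco3a1, Zmiz1, Cd44, the hyaluronan receptor, Samsn1, Basp1, Pabpn1, Rgs2 and H2afy. H2afy, the histone macroH2A1, averaged 1087 ± 277 against 1804 ± 341 CPM. Of these named genes, Apoe, Wfdc17, Pabpn1, Zmiz1 and Slco3a1 lost their call with 1 library or another left out. Without the 3 kinds 34 genes passed, of which 24 were among the 49. Of 5 measured genes of the early lymphoid list 1 was lower past the threshold, namely Satb1, and 0 higher, beside 0.713% and 0.346% of all genes tested. In that list 3 had positive differences and the median was 0.34. Satb1 and Mef2c, which is outside that list, are factors of lymphoid priming and were both lower, Satb1 with 37.8 ± 21.1 against 71.4 ± 23.6 CPM and Mef2c with 257 ± 45.1 against 410 ± 158 CPM.

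Neither the S phase list (0 of 15 past the threshold, median 0.09) nor the stem cell list (0 of 3 measured) differed from the Flt3-positive class past the threshold, nor did Cdk6 (245 ± 91.1 and 260 ± 62.3 CPM) or Cebpa, the factor that opens the granulocyte branch (24.2 ± 9.53 and 32.2 ± 10.8 CPM). MHC class II genes were lower in the gate in 5 of 6 genes, 1 of them past the threshold, with a median log2 difference of -0.63, and in 6 of 6 at -1.26 without the 3 kinds. Of all genes tested over the whole gate 0.713% were lower past the threshold, and the median was -0.006. With Cd48 at 2 UMIs or more in both classes, 0 genes passed.

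The share of gated cells among the LSK cells asks whether age or CASIN changed how many there were. It was 2.22%, 3.08% and 1.90% in the young libraries, 2.10%, 1.36% and 1.47% in the aged and 1.43%, 2.61% and 0.655% in the CASIN libraries. The groups overlapped, and within a group CASIN 2 and 3 were the widest apart, with 95% Wilson intervals of 1.97 to 3.45% and 0.404 to 1.06%, which cover counting error only. The mean was 2.40 ± 0.608% in young, 1.64 ± 0.402% in aged and 1.56 ± 0.982% in CASIN libraries (SD, n = 3).

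The aged group lay 0.756 percentage points under the young (difference -0.756, two-sided exact permutation p = 0.2, and p = 0.45 adjusted over the 3 comparisons), and by -0.547 within batch 1 and -0.484 within batch 2. CASIN lay at -0.0791 points from aged (exact p = 0.9, adjusted 0.9), with -0.0844 within batch 1 and -0.758 within batch 2, and at -0.835 from young (exact p = 0.3, adjusted 0.45), with -0.631 and -1.24 within batches. The age difference was -0.141 with a 5% mitochondrial limit (0.182 within batch 2) and -2.73 after thinning (0.0212 within batch 2), and it ran from -1.01 without young 3 to -0.417 without young 2. CASIN against young was -0.502 with the 5% limit and -1.91 after thinning, and ran from -1.36 without CASIN 2 to -0.380 without CASIN 3. With 3 libraries a group the smallest p this test can give is 0.1, so that none could pass 0.05. Detection of the gate genes differed between libraries as well: a Cd48 UMI was found in 54.5% of the cells of young 1 but in 20.9% of those of young 3, and a Slamf1 UMI in 23.9% of aged 1 but 2.37% of aged 3. The part of this in the shares was not tested.

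**Figure D3:**
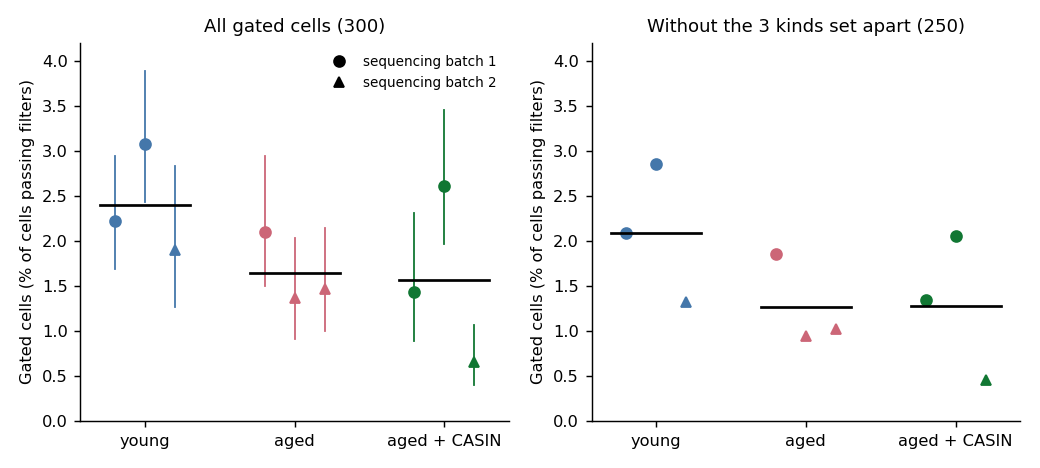
Gated cells as a percentage of all cells that passed the filters (y axis) in each library, by group, with 95% Wilson intervals on the left and black lines at the group means; shape marks the batch. The right side counts only the 250 cells outside the 3 kinds. Groups overlap on both sides, and batch 2 libraries lie low within each group.

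Between groups, the gated cells' summed UMIs per library were compared over 5031 genes, with the batch as a term. More genes differed between the batches than between the groups: 2231 genes (44.3%) passed an adjusted p of 0.05 for the batch (edgeR), and the Spearman correlation of 2 libraries across these genes, which are not independent replicates, was 0.821 to 0.938 within a batch and 0.591 to 0.697 between batches. Fewer cells of a kind and less RNA per cell cannot be told apart in such sums.

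With age, 1 of 5031 genes (0.0199%) passed an adjusted p of 0.05 (edgeR), namely Isg15, an interferon-induced ubiquitin-like protein (chromosome 4, 156199424 to 156200818, minus strand). It stood at 37.1, 24.8 and 2.78 CPM in the young libraries, at 130, 9.57 and 2.54 CPM in the aged and at 44.2, 27.9 and 3.29 CPM in the CASIN libraries. Only aged 1 was high, and aged 2 and 3 lay within the young range or just under it. The log2 fold change was 2.07 (SE 0.36, edgeR adjusted p = 0.0259), with 1.06 and no call when aged 1 was left out, and the call was also lost without young 1 (2.28) or young 2 (1.79), with the 5% mitochondrial limit (1.995), with the replicate block (1.78) and without the batch term (1.09). After thinning of the gate the direction turned (-0.20). In aged 1, 32 of the 48 Isg15 UMIs came from 1 cell. Of the interferon list 8 genes were measured, with Isg15 the one past the threshold and a median log2 fold change of 0.08, against 0.01 over all genes.

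The next genes by unadjusted p did not pass (edgeR adjusted p of 0.189 to 0.207). Klf4, a zinc finger factor, was at 10.4, 9.03 and 25.0 CPM in young and 13.5, 103 and 117 CPM in aged libraries, high in both aged libraries of batch 2. In aged 3, 35 of its 46 UMIs came from 1 cell. Outside the 3 kinds aged 3 was at 46.9 CPM and young 3 at 40.6 CPM, while aged 2 was at 126 CPM. Selp, P-selectin, was at 4.45, 7.90 and 22.2 CPM in young and 35.1, 43.0 and 48.2 CPM in aged libraries. Outside the 3 kinds young 3 (40.6 CPM) lay above aged 1 (36.9 CPM), which are of different batches, so that the groups overlapped. Aged libraries lay above young ones there within each batch, at 36.9 against 4.48 and 8.33 CPM in batch 1. In batch 2 they were at 79.2 and 93.9 against 40.6 CPM. Ltb, lymphotoxin beta, was at 162, 144 and 83.4 CPM in young and 67.5, 4.78 and 22.8 CPM in aged libraries. In young 3, 26 of its 30 UMIs lay in the 3 kinds, and outside them young 3 was at 20.3 CPM and the aged libraries at 70.9, 9.31 and 46.9 CPM, which overlap. Topors, a ubiquitin and SUMO ligase, had a log2 fold change of 1.33 (SE 0.29) and Sertad1, a cofactor of cell cycle transcription, of 1.23 (SE 0.28). At an unadjusted p under 0.05 there were 298 genes, and DESeq2 called 0.

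Immediate-early genes, which respond rapidly to growth factors and stress, had mostly positive values but did not pass singly. Compared with the Procr-positive class (below), 17 of 19 had a more negative age difference in the gate, at a median of -0.53. Of 18 measured in the gate itself, 0 passed and 16 had a positive log2 fold change with age, with a median of 0.78 against 0.01 over all genes. Without the 3 kinds of cells 17 of 18 were positive at a median of 0.63, and 6 of 3530 genes in all passed (0.17%), 4 higher (0.113%) and 2 lower (0.0567%) in aged libraries. Isg15 was not among the genes tested there, since it did not pass the filter on low counts. These 6 are named although their values had been seen.

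Of the 4 that rose without the 3 kinds, Jund, a subunit of the AP-1 factor (chromosome 8, 70698949 to 70700616, plus strand), was at 653, 811 and 584 CPM in young, 1059, 1304 and 1455 CPM in aged and 1282, 1036 and 944 CPM in CASIN libraries. All aged and CASIN libraries lay above all young libraries. Its log2 fold change was 0.91 (SE 0.16, edgeR adjusted p = 0.0117). Over all gated cells it was 0.49 (edgeR adjusted p = 0.379), and aged 1 (1008 CPM) lay below young 3 (1412 CPM). Junb, another AP-1 subunit, was at 532, 666 and 279 CPM in young and 905, 680 and 480 CPM in aged libraries, which overlap, with aged above young within each batch (0.85, SE 0.17, edgeR adjusted p = 0.0292). Sertad1 and Plaur, the urokinase receptor, rose by 1.33 (SE 0.29) and 1.17 (SE 0.25) on the log2 scale, both at an edgeR adjusted p of 0.0486. Cxcr4, the receptor that holds cells in the marrow, fell (log2 fold change -2.19, SE 0.38), but its level was a matter of batch, at 7.47 and 5.95 CPM in young 1 and 2 and 685 CPM in young 3, so that the call rests on batch 2. Cxcl2, a chemokine, was at 40.3, 80.9 and 0 CPM in young and 2.84, 0 and 0 CPM in aged libraries.

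Between CASIN and aged libraries 0 of 5031 genes passed (0%; edgeR), with 236 at an unadjusted p under 0.05 and 1 called by DESeq2. Without the 3 kinds 1 of 3530 passed (0.0283%), namely Cxcl2, named after its values were seen, at 80.1, 142 and 12.9 CPM in CASIN libraries against 2.84, 0 and 0 CPM in aged libraries (edgeR adjusted p = 0.00421). Over all gated cells Cxcl2 was at 78.6, 92.5 and 6.58 CPM in CASIN and 10.8, 14.3 and 2.54 CPM in aged libraries, which overlap, with a log2 fold change of 1.92 and no call (edgeR adjusted p = 0.931). The smallest p-values belonged to Sfn, the 14-3-3 sigma protein, Hspa1a, the inducible heat shock protein 70, Isg15, Pon2, a paraoxonase, Lyz2, lysozyme, and Ifitm3, an interferon-induced membrane protein, at edgeR adjusted p of 0.212 to 0.555. Pon2 was at 29.7, 35.9 and 35.5 CPM in aged and 58.9, 62.8 and 72.4 CPM in CASIN libraries, a log2 fold change of 1.20 (SE 0.29), and at 49.0, 42.9 and 66.7 CPM in young libraries. In CASIN 2 and 3, 27 of 36 and 15 of 22 Pon2 UMIs lay in the 3 kinds. Outside them Pon2 was at 25.5, 46.6 and 36.5 CPM in aged and 60.1, 24.1 and 45.2 CPM in CASIN libraries, which overlap, with a log2 fold change of 0.45. Sfn was at 2.70, 7.17 and 12.7 CPM in aged and 9.82, 68.1 and 102 CPM in CASIN libraries, and 75.5% of its UMIs lay in immunoglobulin-rich cells. Hspa1a was at 0, 198 and 86.3 CPM in aged and 0, 0 and 16.5 CPM in CASIN libraries. In aged 2, 61 of its 83 UMIs came from 1 cell, and in aged 3, 28 of 34 lay in the 3 kinds. Outside the 3 kinds Hspa1a was at 0, 102 and 31.3 CPM in aged and at 0 CPM in all CASIN libraries.

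Among the lists, S phase genes were lower in CASIN than in aged libraries in 14 of 16 genes with a median log2 fold change of -0.37, and MHC class II genes higher in 6 of 6 with a median of 0.76, with 0 genes past the threshold in both. Without the 3 kinds these were 11 of 14 at -0.32 and 6 of 6 at 0.43. Cdc42, the target of CASIN, did not pass between any groups: it was at 396, 377 and 297 CPM in young, 330, 363 and 320 CPM in aged and 378, 312 and 300 CPM in CASIN libraries, groups that overlap, and of 14 measured genes of the Cdc42 pathway 0 passed between groups. Against the Procr-positive class 4 of 15 pathway genes were higher and 1 lower past the threshold, beside 17.3% and 16.7% of all genes tested. The counts are of transcripts and say nothing about the activity of the GTPase.

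Between CASIN and young libraries 1 of 5031 genes passed (0.0199%; edgeR), with 245 at an unadjusted p under 0.05 and 3 called by DESeq2. The gene was Jund, at 648, 779 and 1412 CPM in young and 1316, 1032 and 2001 CPM in CASIN libraries over all gated cells. The groups overlap, and CASIN lay above young within each batch. The log2 fold change was 0.77 (SE 0.14, edgeR adjusted p = 0.0361). It was 0.68 without the immunoglobulin-rich and basophil cells and 0.70 without all 3 kinds, where it no longer passed and 0 of 3530 genes did (0%; edgeR). In young 3, 393 of the 508 Jund UMIs lay in cells of these kinds. Leaving out young 1, young 2, young 3, aged 1, CASIN 1 or CASIN 3 also ended the call, at log2 fold changes of 0.67 to 0.84. So did the 5% mitochondrial limit (0.61), thinning (0.28), the residual filter (0.48), Cd48 at 2 UMIs or more (0.15) and a fit without the batch term (0.74).

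Zfp36, tristetraprolin, which shortens the life of inflammatory mRNAs, was next among the genes of the immediate-early list, at 217, 226 and 142 CPM in young and 398, 367 and 260 CPM in CASIN libraries, with no overlap (log2 fold change 0.94, SE 0.19, edgeR adjusted p = 0.0870). Snhg9, a snoRNA host transcript, had a log2 fold change of 1.30 (SE 0.26, edgeR adjusted p = 0.0804). Of 18 immediate-early genes 16 were positive against young at a median of 0.67, and 18 of 18 at 0.56 without the 3 kinds. Aged and CASIN libraries were both compared with the same 3 young libraries, so that these values and those for age are not independent of each other.

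**Figure D4:**
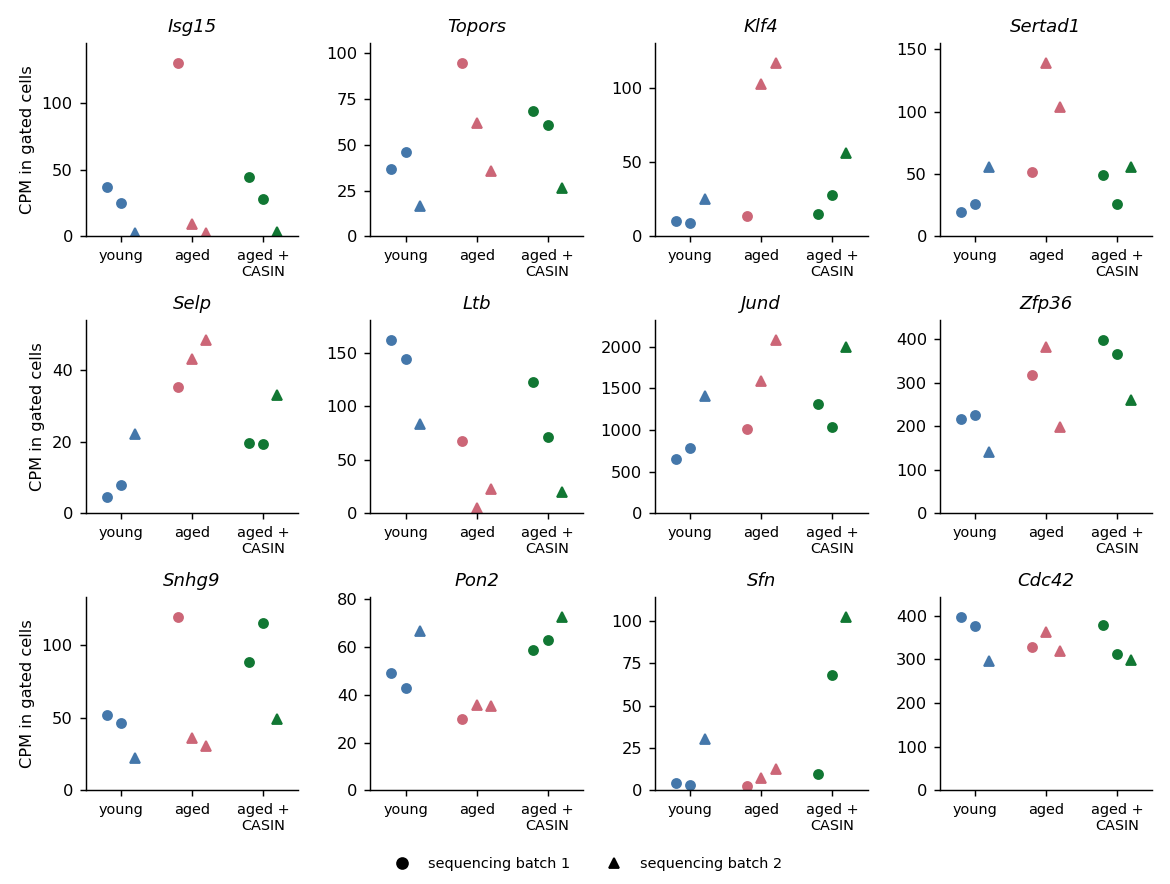
CPM in all gated cells (y axis, linear, from 0) for 12 genes in each library, by group and batch. Isg15 is high in 1 aged library (130 CPM), and Cdc42 overlaps between all groups. Over all gated cells Selp and Ltb do not overlap between young and aged libraries, nor Pon2 between aged and CASIN libraries. Outside the 3 kinds (not drawn) all 3 overlap, but Selp only between libraries of different batches, with aged above young within each batch.

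Whether age changed the gated cells differently from their neighbours was tested as the interaction of class and age. Against the Flt3-positive class 8 of 6174 genes passed (0.13%; edgeR), 4 in each direction (0.0648%), and against the Procr-positive class 55 of 9532 passed (0.577%), 35 with a more positive age difference in the gate (0.367%) and 20 with a more negative one (0.21%). DESeq2 called 1 and 12. Without the 3 kinds in either class there were 4 of 6063 (0.066%) and 96 of 9578 (1%), with 2 and 45 genes in common with the full gate. The counts ran from 3 without young 3 to 15 without CASIN 2 and from 22 without aged 1 to 86 without aged 3. Against the Procr-positive class 5 passed without the class by batch term and 220 after thinning of the gate.

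Plac8 gave the smallest adjusted p against the Procr-positive class. In the gated cells it was at 712, 1043 and 539 CPM in young and 773, 1320 and 1038 CPM in aged libraries, and in the Procr-positive class at 120, 149 and 264 CPM in young and 17.8, 130 and 158 CPM in aged libraries. Within each batch its level was lower with age in the Procr-positive class, whereas in the gate aged 2 and 3 lay above young 3 and aged 1 lay between young 1 and 2. The difference of the age effects was 2.22 on the log2 scale (SE 0.18, edgeR adjusted p = 2.64e-11), and 2.04 without the 3 kinds.

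Few members of the gene lists passed in this interaction with the Procr-positive class, beside 0.577% of all genes. They were 1 of 12 of the stem cell list (Nupr1, list median -0.72), 2 of 20 transcription factors (Gata2 and Spi1, -0.08), 1 of 7 of the early lymphoid list (Satb1, -0.20, with 3 members positive and 4 negative) and 1 of 14 of the granulocyte and monocyte list (Lyz2, 0.89). The others were 1 of 15 interferon genes (0.30), 1 of 1 T and NK cell genes (Nkg7), 1 of 2 label markers (Cd34) and 1 of 19 immediate-early genes. Of these 19, 17 had a more negative age difference in the gate, with a median of -0.53. Gata2 (-1.41, SE 0.30) and Nupr1 (-2.72, SE 0.55) had a more negative age difference in the gate than in the Procr-positive class. Cd34 was at 207, 166 and 233 CPM in young and 47.9, 141 and 169 CPM in aged libraries of the Procr-positive class, and at 401, 342 and 258 CPM in young and 311, 246 and 183 CPM in aged libraries of the gate. Aged libraries lay below young ones within each batch in both, and the difference of the age effects was 1.03 (SE 0.24, edgeR adjusted p = 0.0423). Spi1 (1.04, SE 0.20), Satb1 (2.27, SE 0.53), Nkg7 (1.27, SE 0.27) and Lyz2 (0.87, SE 0.19) were also more positive in the gate. All 18 S phase genes had a positive difference, with a median of 0.75 against -0.02 over all genes, and 0 of them passed.

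Ccl4, a chemokine of activated cells (chromosome 11, 83662584 to 83664683, plus strand), passed against both classes. In the gated cells it was at 72.7, 148 and 122 CPM in young and 297, 378 and 454 CPM in aged libraries, with no overlap. In the Flt3-positive class it was at 231, 378 and 470 CPM in young and 326, 204 and 498 CPM in aged libraries, and in the Procr-positive class at 127, 155 and 61.6 CPM and at 116, 104 and 131 CPM. The differences were 1.85 (SE 0.30, edgeR adjusted p = 0.00805) and 1.36 (SE 0.22, edgeR adjusted p = 0.000130). Against the Flt3-positive class it no longer passed without the 3 kinds (2.13), without young 3 (1.49) or without CASIN 3 (1.82), and against the Procr-positive class without aged 1 (1.08). Up to 70 UMIs of Ccl4 came from 1 cell in aged 3, and after thinning of the gate both differences changed sign (-1.25 and -0.33). Serpinb1a, an inhibitor of neutrophil proteases, had a difference of 1.36 (SE 0.23, edgeR adjusted p = 0.000301) from the Procr-positive class, and aged 1 lay near both young libraries of batch 1 in the gate (300 against 261 and 317 CPM) but under them in the Procr-positive class (44.2 against 96.9 and 102 CPM).

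**Figure D5:**
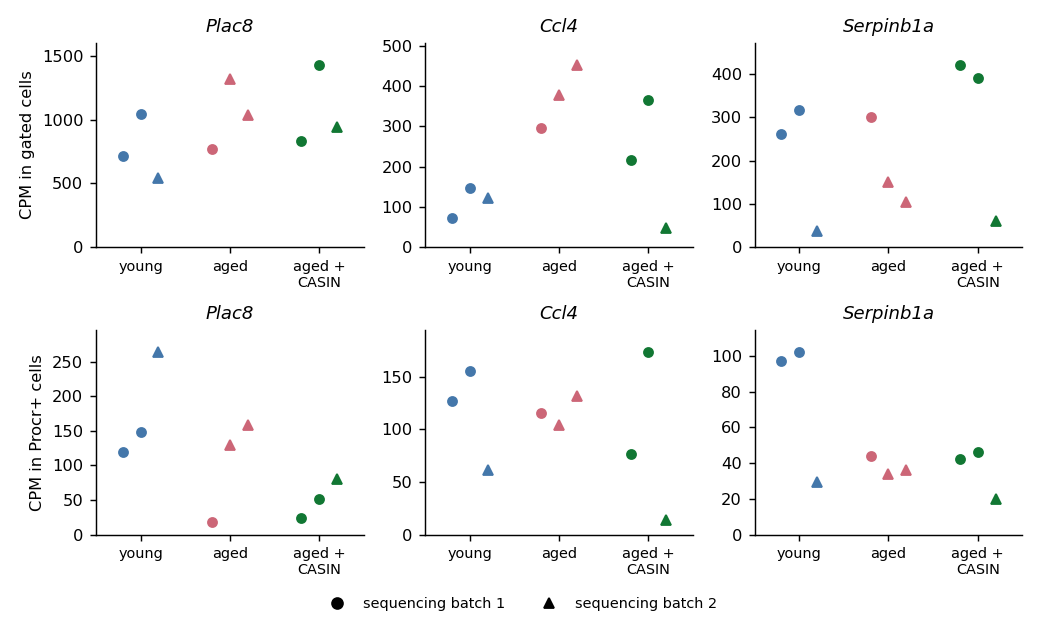
CPM (y axis, linear, from 0, own scale in each plot) of Plac8, Ccl4 and Serpinb1a in the gated cells (upper row) and the Procr-positive class (lower row) of each library, by group and batch. In the gate all 3 aged libraries lie above all 3 young ones for Ccl4, and in the Procr-positive class they overlap.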

How the data were processed

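Droplet libraries of LSK cells were made from 3 young, 3 aged and 3 CASIN samples. The authors mapped reads to mm10 and counted UMIs per gene and barcode with Cell Ranger 3.1.0 (per the submitters' processing notes), and the deposited counts are raw, with 31053 genes and no normalization. Cells were kept at 1000 to 40000 UMIs, at most 6000 genes and at most 10% mitochondrial UMIs. The study's methods also discard cells by the residual of genes against UMIs (limit 0.4), which is not part of the gate and was run as an alternative: it leaves 15856 cells and removes 22 gated cells. The gate was applied to raw counts, and the UMIs of gated cells were summed per library. The members and the 24 gene lists (282 entries) were chosen with earlier results of these data known.

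Groups were compared with edgeR 4.0.16 quasi-likelihood tests (robust, TMM, filterByExpr), with group and sequencing batch as terms, and Benjamini-Hochberg adjustment over all genes tested. Classes were compared with the library as block, and their age effects by an interaction with a class by batch term. Gate genes were left out of class comparisons. Shares were compared by exact permutation tests over libraries. Genes were named by rule: up to 12 in each direction by size past an adjusted p of 0.05, at 20 CPM or more for groups (same direction in both batches) and 50 CPM or more for classes (same direction in 9 of 9 libraries), the 6 of smallest unadjusted p where fewer than 5 passed, up to 6 for an interaction by adjusted p, and list members with Cd34, Ctla2a and Cdc42. On simulated counts with the spread of these libraries, 6.6%, 39.7% and 87.5% of genes changed by 0.5, 1 and 2 on the log2 scale with age were recovered over 4703 genes (6% of calls false), and 56.2%, 94.9% and 100% against the Flt3-positive class over 4416 genes (4.7% false).

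Alternatives were DESeq2 1.42.0 and its size factors, no filter on low counts, a 5% mitochondrial limit, that residual filter, Scrublet calls left out, the gate after thinning to 4000 UMIs, Cd48 at 2 UMIs or more, other model terms, and each library left out. Leaving out the immunoglobulin-rich, basophil and granulocyte-monocyte-rich cells was added after the data were seen. Promoter sequences came from RefSeq (GRCm38.p6, 32851 promoters) and gene positions from GENCODE (GRCm38). Intervals cover counting error only. Some genes are not reported here. R 4.3.3, Python 3.11.15, scanpy 1.11.5 and scipy 1.17.1 were used.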

Additional observations from a re-analysis of the deposited data

Results flagged for a closer look

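The results here are named because the age difference in the gated cells differed from that in a neighbouring class by the edgeR interaction test, with an adjusted p under 0.05. Against the Flt3-positive class the log2 difference of the age effects was 14.47 for Igkv14-126 and 12.67 for Ighv11-2, both immunoglobulin variable segments, which were at 0 CPM in aged 1 and in all young libraries of the gate and at 210 and 398 CPM (Igkv14-126) in aged 2 and 3, so that these sizes depend on the model's treatment of zeros and are no bounds. Without young 3 they were 6.32 and 7.80 and no longer passed. It was 3.129 for Isg15, with 0.54 and no call without aged 1. It was -2.183 for Mzb1, a chaperone of antibody-secreting cells, and -3.209 for Cd83, and both changed sign without young 3 (2.83 and 3.05). It was 1.852 for Ccl4.

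Against the Procr-positive class the difference was 2.224 for Plac8, 7.682 for Cxcl10, an interferon-induced chemokine, -6.659 for Ly6k, 1.361 for Ccl4 and 1.362 for Serpinb1a. Cxcl10 was at 13.5, 105 and 99.0 CPM in the aged libraries of the gate and at most 2.78 CPM in the young ones, and the cells of the 3 kinds held 41 of its 44 UMIs in aged 2 and 37 of 39 in aged 3, while without them the difference was 6.58 and past the threshold on 5 UMIs, all from 1 cell, in aged 1, 3 UMIs in aged 2 and 2 in aged 3. Ly6k was at 178 CPM in young 3 and at most 12.0 CPM in the aged libraries of the gate, and it no longer passed without young 3 (-5.78). Cxcl10 also lost its call without young 3 (5.86). The 3 kinds of cells set apart in the gate held all 231 Mzb1 and all 65 Cd83 UMIs of young 3, all 88 Igkv14-126 and all 22 Ighv11-2 UMIs of aged 2, and all 64 Ly6k UMIs of young 3, which came from 1 cell. Without these kinds Igkv14-126, Ighv11-2, Mzb1, Cd83 and Ccl4 were not called against the Flt3-positive class, whereas Isg15 was (3.31).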

How the results depend on the processing

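Genes past the threshold for age numbered 0 under DESeq2, with Cd48 at 2 UMIs or more, after thinning of the gate, with a 5% mitochondrial limit and without the batch term, 42 (26 higher, 16 lower) without the filter on low counts, 2 with the residual filter, 2 without immunoglobulin-rich and basophil cells, 6 without the 3 kinds, and 1 to 16 with a library left out (16 without aged 1). For CASIN against aged there were 1 with Cd48 at 2 UMIs or more, 1 under DESeq2, 14 without the filter, 1 without the 3 kinds, and 0 to 3 with a library left out. For CASIN against young there were 0 with Cd48 at 2 UMIs or more, without the batch term, with the residual filter and without either set of cells, 3 under DESeq2, 46 without the filter, 3 with only the groups compared in the fit, and 0 to 4 with a library left out. Against the Flt3-positive class there were 0 with Cd48 at 2 UMIs or more, 11 after thinning, 11 with the 5% limit, 235 without the filter and 21 to 48 with a library left out (21 without aged 2). Without the 3 kinds there were 34, of which 24 were among the 49 of the full gate. Against the Procr-positive class 4302 passed after thinning. The age interaction gave, against the Flt3-positive and Procr-positive classes, 1 and 12 under DESeq2, 5 and 220 after thinning, 5 and 5 without the class by batch term, 16 and 92 without the filter, 5 and 90 with the residual filter, 2 and 95 without immunoglobulin-rich and basophil cells, 4 and 96 without the 3 kinds, 99 for the latter with Cd48 at 2 UMIs or more, and 3 to 15 and 22 to 86 with a library left out. The cause was not tested in any of these.

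The share of CASIN against aged libraries changed sign with the residual filter (0.0199 points), after thinning (0.819), with Cd48 at 2 UMIs or more (0.0754) and without the 3 kinds (0.00567), and ran from -0.600 to 0.375 with a library left out. Of single genes, values on the log2 scale changed sign after thinning for Isg15 with age (-0.20), Hspa1a (0.33) and Lyz2 (0.34) in CASIN against aged, Slc3a2 in CASIN against young (-0.084), Ccl4 in both interactions (-1.25 and -0.33), Cxcl10 (-0.89) and Mzb1 (0.15). Mzb1 also did so with Cd48 at 2 UMIs or more (1.63) and Cd83 without immunoglobulin-rich and basophil cells (0.62). With a library left out, Mzb1 ran from -2.51 to 2.83, Cd83 from -3.58 to 3.05 in the interaction and from -2.42 to 2.43 in CASIN against young. Cd34, Ctla2a and Cdc42 were near 0 and not called where they changed sign. For age these were Ctla2a with Cd48 at 2 UMIs or more (0.12) and without the batch term (0.14), and Cdc42 with the residual filter (-0.0023), without the 3 kinds (-0.16) and with the replicate block (-0.019). For CASIN against aged they were Cd34 with the 5% limit (0.039), with the block (0.079) and without the batch term (0.035), Ctla2a with the 5% limit (0.19), the residual filter (0.017), without immunoglobulin-rich and basophil cells (0.051) and without the 3 kinds (0.030), and Cdc42 with the residual filter (0.0072), without these cells (0.0087), without the 3 kinds (0.17), with the block (0.034) and with only the groups compared (0.030). For CASIN against young Cdc42 gave -0.13 after thinning, -0.12 with Cd48 at 2 UMIs or more and -0.060 without the filter. Against the Flt3-positive class Ctla2a gave -0.11 after thinning and -0.17 with Cd48 at 2 UMIs or more, and Cdc42 0.023 and 0.040. Against the Procr-positive class Ctla2a gave -0.058 with the 5% limit, -0.063 after thinning and -0.20 with Cd48 at 2 UMIs or more, and Cdc42 -0.045 with the 5% limit and -0.057 without the filter. With a library left out Ctla2a ran from -0.36 to 0.0043 (age), -0.19 to 0.15 (CASIN against aged) and -0.020 to 0.10 (Flt3-positive class), Cdc42 from -0.11 to 0.15, -0.13 to 0.038, -0.068 to 0.058 (CASIN against young) and -0.042 to 0.023, and Cd34 from -0.43 to 0.10 (CASIN against aged). Of the single genes named, 733 values under other settings kept direction and side of the threshold, 90 lost and 24 gained a call.

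The replicate numbers in the labels were not taken to pair the libraries, since not every correlation of deviations from the group means was over 0.1. Same-numbered libraries correlated at 0.40 to 0.70 except for both pairs with aged 2 (-0.39 and -0.25), which lies in the other batch than its partners. With the replicate block beside the batch term the counts were 5 for age, 2 for CASIN against aged and 8 for CASIN against young. Isg15 was no longer called with age (1.78, edgeR adjusted p = 0.117), and Jund was still called in CASIN against young.

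Gated cells were few, at 16 to 68 a library, and the gate depends on the absence of UMIs, so that depth limits both its membership and every level at a few CPM. Both batches held all 3 groups, but unequally, and each group rests on a single library in at least 1 batch.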
